A study of Canis lupus familiaris with 6 samples.

Results

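H19, an imprinted long noncoding RNA, and IGF2R, the receptor that takes up insulin-like growth factor 2 (IGF2) and mannose 6-phosphate-tagged enzymes, were followed on 6 one-colour Agilent dog arrays. The members were the probes whose accession is a dog RefSeq transcript of either gene: 1 probe for H19 and 3 for IGF2R, or 4 of 43603 non-control probes, of which 2326 carry a gene name here. Both genes were chosen by their signals on these same arrays, H19 for the course of its difference between the arms and IGF2R beside it. Their values are therefore given as a description, without tests.

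The cells were MDCK-II, a line of dog kidney tubule epithelium, carrying a short hairpin RNA against scribble, a cell polarity scaffold, under a tetracycline (Tet) switch; all 6 samples carry that hairpin construct. In 1 arm the cells received no Tet, in the other 5 µg/ml from 6 h after plating, and RNA was taken at 30, 45 and 60 h. Each array held RNA mixed from 3 wells, so each condition has 1 array and no replicate. Cells that lack the hairpin were not among the samples, so an effect of the hairpin and an effect of the drug itself cannot be told apart. In such bulk RNA, fewer cells that make a transcript and less transcript per cell cannot be told apart either. The labels do not say whether the line is 1 clone.

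H19 and IGF2 lie side by side in an imprinted domain: in mammals such as mouse, H19 is made from the maternal copy and IGF2 from the paternal one. Both draw on shared enhancers, and an insulator bound by CTCF between them decides which gene is reached. H19 is abundant in fetal tissue and placenta, is mostly shut down after birth, and holds the precursor of a microRNA. IGF2R, also called the cation-independent mannose 6-phosphate receptor, is maternally expressed in mouse. It carries newly made lysosomal hydrolases from the Golgi to endosomes, and at the cell surface it binds IGF2 and delivers it to lysosomes, which lowers the growth signal.

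Levels are the log2 of the processed spot signal less the 75th percentile of the array, so that 0 is a probe as bright as that percentile. Errors are the scanner program's own estimate for the single spot, about 0.14 for each level and about 0.20 for each difference. For the member probes they are a nearly constant share of the intensity. They stand for the reading of 1 spot and not the spread between cultures. Levels of different probes are not compared. Between 64.3% and 68.8% of spots lay well above background on an array, no spot was saturated, and the arrays' profiles correlated at 0.985 to 0.996. Of 16 tubule epithelium markers, 7 have a named probe and all 7 were well above background on all 6 arrays. Their summed signal, in multiples of the 75th percentile, was 148 to 151 without Tet and 122 to 132 with it. That sum leans on the brightest probe, KRT19, with a mean level of 6.45 without Tet. On average over the times 5 of the 7 were lower with Tet and 2 higher. The keratin KRT19 stood at -0.28, -0.34 and -0.13 and the claudin CLDN2 at 0.06, -0.38 and -1.64, while the cadherin CDH1 stood at -0.01, 0.07 and 0.51 and the junction protein OCLN at 0.11, 0.12 and 0.16. The fibroblast markers' sum was 3.26 to 3.76 without and 3.60 to 3.74 with Tet, and it leans on COL1A2. On average over the times 3 of the 4 in the fit were higher with Tet and 1 lower. COL1A1 stood at 0.26, 0.70 and 0.82, and COL1A2 at 0.22, -0.06 and -0.11, a mean of only 0.02. On average 3 of the 4 COL1A1 probes were higher and 1 lower, while 2 of the 6 COL1A2 probes were higher and 4 lower. Of the 5 fibroblast genes with a probe, COL1A1, COL1A2, PDGFRB and THY1 were well above background on all 6 arrays and DCN on none. The muscle gene CKM, the blood cell genes CD4 and CD8A and the endothelial genes VWF and KDR also were on all 6, while the muscle gene DES and the B cell gene MS4A1 were on none. The part of these shifts in the results below was not tested.

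H19 was lower with Tet at every time, and the gap was wider at each later one. The probe (A_11_P0000017295, accession NR_027327) read an intensity of 939 ± 94 at 30 h, 967 ± 97 at 45 h and 1181 ± 118 at 60 h without Tet. With Tet it read 697 ± 70, 363 ± 36 and 177 ± 18. It was well above background on all 6 arrays. The brightest array with Tet, at 30 h, was dimmer than the dimmest array without it. Of all features (defined below), 21.5% were lower with Tet at all 3 times. The share whose arms do not overlap was not counted.

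After scaling, H19 stood at levels of 0.56, 0.65 and 1.0 without Tet and at 0.14, -0.77 and -1.71 with Tet. The difference, with minus without Tet, was -0.42 ± 0.20 at 30 h, -1.42 ± 0.20 at 45 h and -2.72 ± 0.20 at 60 h (spot error). In folds, H19 was 1.34-fold, 2.68-fold and 6.57-fold lower. The mean of the 3 differences was -1.52, with an SD of 1.15 over the times. Leaving out 1 pair of arrays moved this mean to between -2.07 and -0.92, the first without the 30 h pair and the second without the 60 h pair, so the mean rests on which times enter it.

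Most of that widening came from the arm with Tet. There the H19 level was lower by 0.91 at 45 h than at 30 h and lower by a further 0.94 at 60 h, steps of 1.87-fold and 1.92-fold. The signal at 60 h was 27.7% of that at 30 h. Without Tet the level was 0.10 higher at 45 h and a further 0.35 higher at 60 h, 1.36-fold over the whole interval. Ordered by level, the arrays ran from 60 h without Tet through 45 and 30 h without Tet to 30, 45 and 60 h with Tet. Of the 5 gaps in this order 4 were larger than the spot error; the exception was the gap of 0.10 between 45 and 30 h without Tet.

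Part of this can be read within 1 slide, as told by the barcodes in the file headers. Whether the arrays of a slide were labelled or hybridised together is not known here. Both 30 h arrays and the 45 h array without Tet lie on slide 1, and the other three on slide 2. The differences of -0.42 at 30 h and -2.72 at 60 h were thus each taken within a slide, while the 45 h pair spans both. The step of -0.94 with Tet from 45 to 60 h was also within slide 2, and the step of 0.10 without Tet from 30 to 45 h within slide 1.

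**Figure D1:**
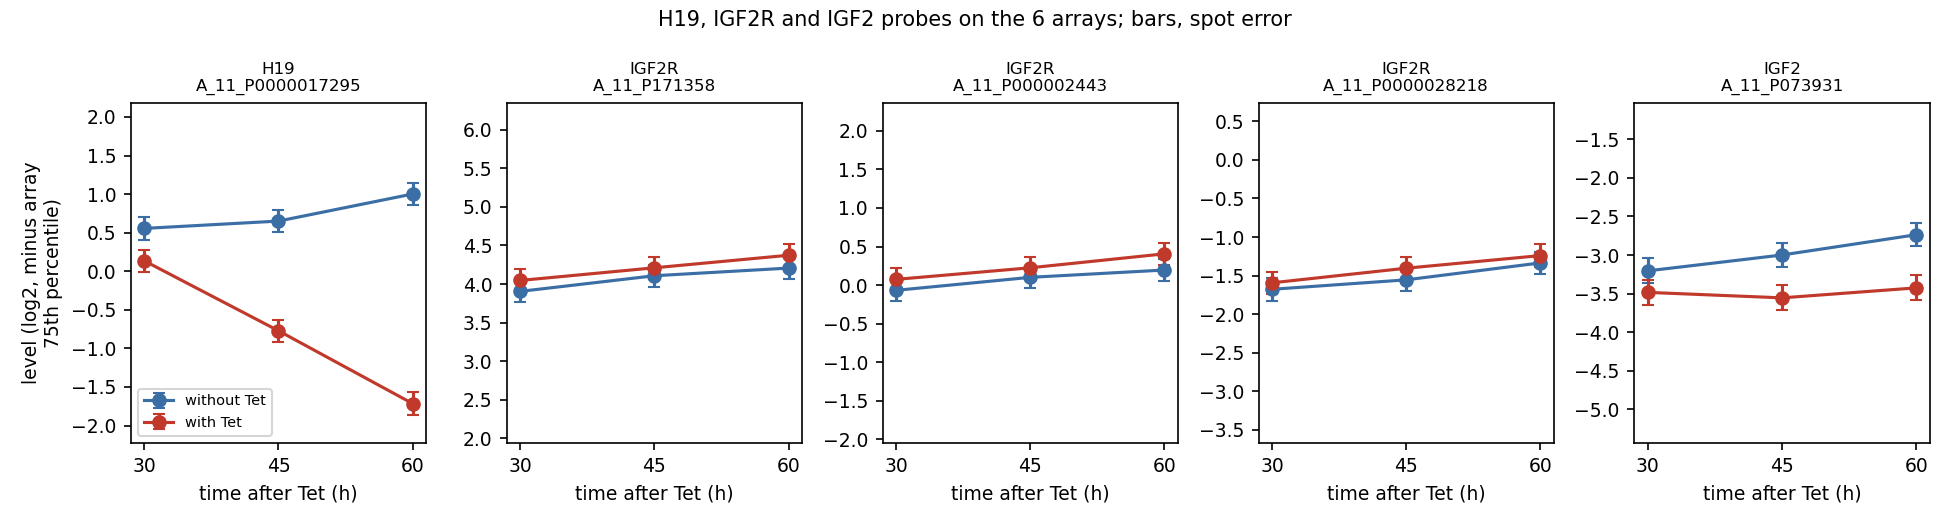
Levels of the H19 probe, the 3 IGF2R probes and the IGF2 probe (log2, minus the array's 75th percentile) against hours after the start of Tet, without Tet in blue and with Tet in red; bars are the spot error and each point is 1 array. H19 stands at 1.0 without and -1.71 with Tet at 60 h, whereas the IGF2R arms run side by side and from 30 to 60 h IGF2 is 0.47 higher without and 0.06 higher with Tet.

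Among all features the difference of H19 moved further towards the lower end at each time. A feature is a named gene, by its brightest probe, or an unnamed probe, well above background on all 3 arrays of an arm; 27581 entered. At 30 h 4.31% of them had a lower difference than H19, at 45 h 0.482% and at 60 h 0.112%, or 31 features, 4 of them named. H19 was more than 2-fold lower at 45 and 60 h. Of features well above background on an array of the pair, 1.70% were at least 2-fold lower with Tet at 30 h, 3.04% at 45 h and 4.58% at 60 h. The shares at least 2-fold higher were 1.84%, 1.95% and 3.05%. H19 does not count among the 0.794% of features lower by at least 0.58, a 1.5-fold change, at all 3 times, since its difference at 30 h was smaller. A difference that is negative at 30 h and lower at each later time was found in 10.2% of features. Higher at 60 h than at 30 h without Tet and lower with it, as for H19, were 16.5% of features. Higher at each step without Tet and lower at each step with it, also as for H19, were 4.14%. The rule that chose H19 used these contrasts, so its place among other features is a description.

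**Figure D2:**
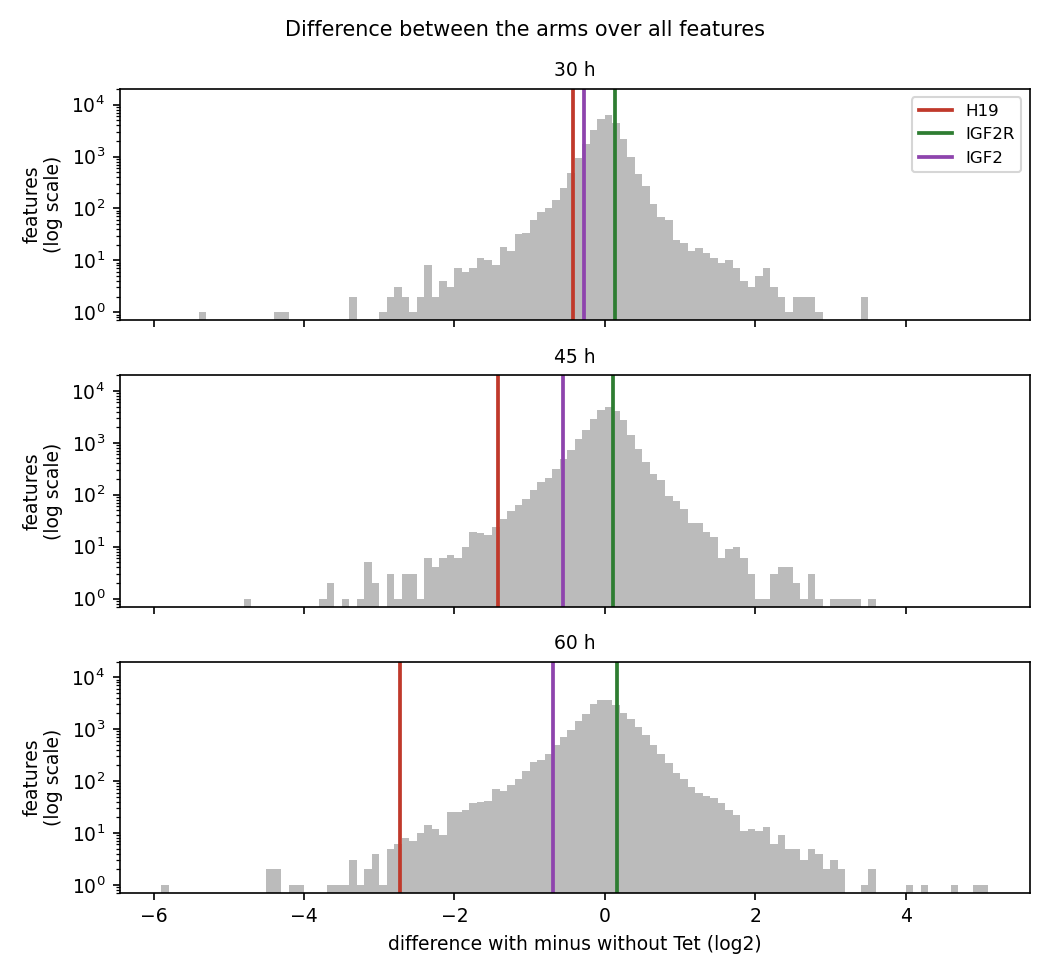
Number of features (log scale) by their difference with minus without Tet (log2) at 30, 45 and 60 h, with lines at H19, the brightest IGF2R probe and IGF2. The H19 line moves from -0.42 to -1.42 and -2.72, beyond all but 0.112% of features at 60 h, while the IGF2R line stays between 0.10 and 0.17.

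IGF2R differed little between the arms. Its brightest probe (A_11_P171358, accession NM_001122602) read intensities of 9568, 10614 and 10891 without Tet at 30, 45 and 60 h, and 10491, 11456 and 12047 with Tet. The arms overlapped, since the arrays without Tet at 45 and 60 h were brighter than the array with Tet at 30 h. The differences were 0.14, 0.10 and 0.17, each smaller than its spot error of 0.20, with a mean of 0.14 and an SD of 0.03 over the 3 times. That is 1.07-fold higher with Tet at 45 h and 1.12-fold at 60 h.

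The other 2 IGF2R probes gave the same picture at their own brightness. The probe A_11_P000002443 read 609, 660 and 675 without Tet and 668, 723 and 770 with it, differences of 0.14, 0.12 and 0.21. The dimmest probe, A_11_P0000028218, read 200, 209 and 234 without and 210, 234 and 246 with Tet, differences of 0.08, 0.15 and 0.09. All 3 probes were well above background on all 6 arrays, and their levels over the 6 arrays correlated pairwise at 0.955 to 0.993. Thus all 9 single differences of IGF2R were above 0, and the largest was 0.21. Higher with Tet at all 3 times were 28.0% of all features, so a run of small positive differences is common on these arrays. The 3 probes read the same RNA on the same arrays and are not replicates of the condition.

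IGF2R was a little higher at later times in both arms. The brightest probe was at levels of 3.90, 4.11 and 4.21 without Tet and at 4.05, 4.21 and 4.37 with it. From 30 to 60 h it was higher by 0.30 without and by 0.33 with Tet, that is 1.23-fold and 1.25-fold. The second probe was higher by 0.26 and 0.33, and the dimmest by 0.34 and 0.35. Every step was upward on each probe in each arm, a course seen in 15.3% of features; 36.2% were higher at 60 h than at 30 h in both arms. Across all features 8.15% passed limma's adjusted threshold for time, 3.94% rising and 4.21% falling, and none did with slide as a term. In the order of the 6 levels of the brightest probe, none of the 5 gaps between neighbours exceeded the spot error; the widest was 0.16. No slide holds arrays of both 30 and 60 h, so the change between these times spans both slides. Within slide 1, without Tet from 30 to 45 h, the brightest probe was higher by 0.20, the second by 0.17 and the dimmest by 0.12. Within slide 2, with Tet from 45 to 60 h, they were higher by 0.16, 0.18 and 0.16. None of these steps exceeded the spot error of a difference. The part of the slide in the IGF2R change was not tested.

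IGF2, the growth factor that IGF2R binds and the neighbour of H19, was also lower with Tet. Its probe (A_11_P073931) stood at levels of -3.20, -3.00 and -2.74 without Tet and at -3.48, -3.56 and -3.43 with it. Each level with Tet was below each level without it, a pattern whose share over all features was not counted. The probe was well above background on every array. The differences were -0.28 ± 0.23, -0.56 ± 0.22 and -0.69 ± 0.22 (spot error), or 1.21-fold, 1.47-fold and 1.61-fold lower. The mean difference over 3 pairs was -0.51 ± 0.10 (limma's SE). It did not pass limma's test across all features (adjusted p = 0.129). Of 27581 features 0 passed that test, and 6432 had an unadjusted p under 0.05. With another background correction (normexp on the median spot signal) the differences at 45 and 60 h were -0.28 and -0.31.

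The course of IGF2 was not that of H19. From 30 to 60 h the IGF2 level was higher by 0.47 without Tet, much as H19 was higher by 0.45, but with Tet it was higher by 0.06 where H19 was lower by 1.85. Over the 6 arrays IGF2 and H19 correlated at 0.74 and H19 and IGF2R at -0.67, values that describe 6 points sharing arm and time. The slope of the IGF2 difference, -0.20 per 15 h, did not pass either (limma, adjusted p = 0.263).

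The genes around H19 were read where they have a named probe. In the RefSeq gene order of assembly UU_Cfam_GSD_1.0, 4 of the 24 entries nearest to H19, 12 on each side, have one. IGF2 comes second on one side of H19 and INS, the insulin gene, next among those with a probe. INS stood at 0.07, 0.15 and 0.27 (mean 0.16, adjusted p = 0.280, limma), on the other side of 0 from its neighbours. TH, tyrosine hydroxylase of catecholamine synthesis, stood at -0.24, -0.13 and -0.08. On the far side of H19, CTSD, a lysosomal protease, stood at -0.06, -0.43 and -0.46. The 4 neighbours thus went both ways, and among them and H19 the difference was widest for H19 at each time.

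Around IGF2R 2 of 24 entries have a probe. SLC22A2, an organic cation transporter that is imprinted in mouse placenta, stood at -0.23, -0.55 and -0.66 (adjusted p = 0.136 for the arms, limma), opposite in sign to IGF2R. It rose with time in culture by 1.45 ± 0.13 (SE; adjusted p = 0.0358, limma), by 1.67 without and 1.23 with Tet, a call lost with slide as a term. PLG, the plasminogen gene, was well above background on 1 of 6 arrays, so no fold is given.

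Of 55 imprinted genes listed, 10 have a named probe and 8 entered the fit, H19 and IGF2R among them. Of the other 6, 4 were lower with Tet at all 3 times and 2 higher; over all features 21.5% were lower and 28.0% higher throughout. Their median difference was -0.31, against 0.01 over all features, and it was -0.19 with normexp. None passed the adjusted threshold for the arms or for the slope; with limma 1 was higher and 3 were lower at an unadjusted p under 0.05, as were 23.3% of all features in either direction.

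GNAS, the stimulatory G protein alpha subunit, from a complex imprinted locus, was lower with Tet on all 5 of its probes, at -0.74, -0.79 and -0.84 on the brightest (adjusted p = 0.108, limma). Its difference was already near its final size at 30 h, unlike that of H19. PON2, a lactonase of the paraoxonase family, stood at 0.20, 0.24 and 0.34 (adjusted p = 0.159), and COMMD1, which acts in copper handling and protein sorting, at -0.11, -0.13 and -0.18 (adjusted p = 0.278). DIO3 and DCN, of the same list, were not well above background on all 3 arrays of either arm.

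**Figure D3:**
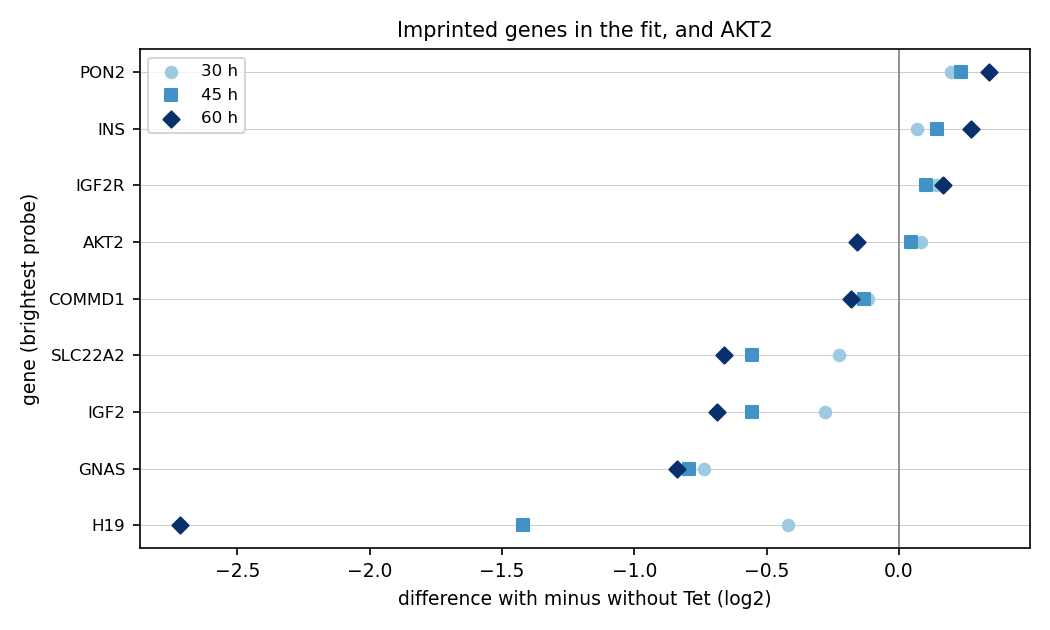
Difference with minus without Tet (log2) at 30 h (circles), 45 h (squares) and 60 h (diamonds) for the imprinted genes of the fit and the kinase gene AKT2, each by its brightest probe, 1 pair of arrays per point. H19 spreads from -0.42 to -2.72, GNAS keeps within -0.74 to -0.84, and IGF2R, INS and PON2 lie above 0 at each time.

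The IGF pathway was thinly covered. Of 40 genes listed 5 have a named probe and 4 were in the fit; IGF1 was not well above background on any array, and IGF1R, INSR, M6PR and the IGF binding proteins have no named probe here. The kinase gene AKT2 stood at 0.09, 0.05 and -0.16 with its 2 probes on either side of 0. For the arms, the slope and time 0 of the 4 passed the adjusted threshold, and 2, IGF2 among them, had an unadjusted p under 0.05 for the arms (limma).

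The lysosomal enzymes that IGF2R sorts were better represented, with 19 of 44 genes in the fit. For the arms 0 passed the adjusted threshold and 7 had an unadjusted p under 0.05, each of them lower with Tet (limma), where 23.3% of all features had such a p in either direction. At all 3 times 9 were lower and 2 higher, and in 7 the difference was negative at 30 h and lower at each later time, while the reverse course was seen in 0. That compares with 21.5% lower and 28.0% higher throughout, and 10.2% with the course of those 7, among all features. The list's median was -0.06 at 30 h, -0.02 at 45 h and -0.20 at 60 h. The median of mean differences was -0.15, and -0.09 with normexp.

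NPC2, which hands cholesterol from lysosomal lumen to membrane, stood at -0.28, -0.79 and -1.08 (adjusted p = 0.141, limma). GLB1, lysosomal beta-galactosidase, stood at -0.31, -0.62 and -0.89 with all 9 of its probes lower (adjusted p = 0.132), and the protease CTSS at -0.07, -0.64 and -1.04 (adjusted p = 0.197). PPT1, a palmitoyl thioesterase, stood at -0.14, -0.37 and -0.49, CTSD as above and the fucosidase FUCA1 at -0.09, -0.30 and -0.41. The receptor that sorts these enzymes stood 0.10 to 0.17 higher by its brightest probe on the same arrays, each difference smaller than its spot error. A relation between receptor and cargo was not tested. CTSK, a collagen-degrading protease, rose with time by 0.60 ± 0.08 (SE; adjusted p = 0.0387, limma), the only one of the 19 to pass for time, again a call lost with slide as a term.

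Of 27 genes for receptors, tagging and sorting coats 2 were in the fit. RAB9A, a small GTPase that returns mannose 6-phosphate receptors from late endosomes to the Golgi, stood at 0.01, 0.18 and 0.64 (adjusted p = 0.311, limma). VPS29, a subunit of the retromer coat that retrieves the receptors from endosomes, stood at 0.04, 0.10 and 0.18 (adjusted p = 0.412). Both were higher at each time and more so at each later one, as were 11.8% of all features.

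**Figure D4:**
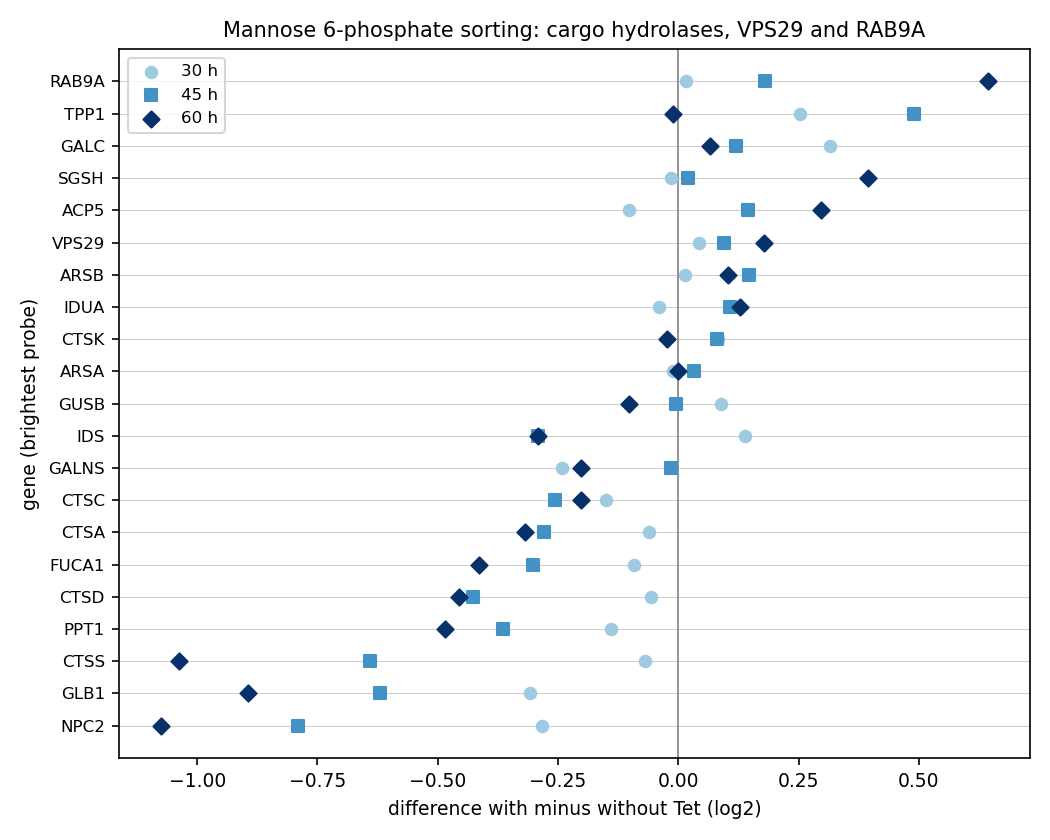
Difference with minus without Tet (log2) at 30 h (circles), 45 h (squares) and 60 h (diamonds) for 19 lysosomal cargo genes and the sorting genes VPS29 and RAB9A, each by its brightest probe. NPC2, GLB1 and CTSS reach -1.08, -0.89 and -1.04 at 60 h, the other 16 cargo genes lie between -0.49 and 0.49 at each time, and RAB9A reaches 0.64.

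A list of other IGF2R ligands and partners, and of genes related to them, was mixed. Not each gene on it, PRL and RARA among them, is known to bind IGF2R. Of 14 listed, 6 were in the fit and 0 passed the threshold (limma, 0 also at an unadjusted p under 0.05). PLAU, the urokinase whose receptor IGF2R binds, stood at -0.14, 0.68 and 2.63 (adjusted p = 0.325), its 2 probes both higher on average. Prolactin, PRL, stood at 0.21, 1.18 and 0.03, and the cytokine LIF at 0.00, 0.14 and 0.73. LIF was well above background on 4 of 6 arrays, 3 with Tet and 1 without. RARA, a retinoic acid receptor, had a mean difference of -0.04, and ADAM17, a protease that sheds membrane proteins, of 0.08.

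Of 25 factors that act on the H19 and IGF2 domain 2 were in the fit. MYC, a transcription factor that can activate H19, stood at -0.56, -0.35 and 0.68 (mean -0.07, adjusted p = 0.894, limma). HMGA1, a chromatin protein, stood at -0.19, -0.22 and 0.39. CTCF and the DNA methyltransferases have no named probe here, and neither has any of 18 genes listed for H19 RNA processing.

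The named genes with the array values most like those of H19 were CA2, a cytosolic carbonic anhydrase (r = 0.994 over 6 arrays), MSRB1, a methionine sulfoxide reductase (0.988), GLB1 (0.984), the growth factor receptor FGFR2 (0.975), the prostaglandin E synthase PTGES (0.975) and the pseudokinase TRIB2 (0.969). They were taken from 219 named genes well above background on all 6 arrays with an SD of at least 0.3. The lowest correlations belonged to the efflux pump ABCB1 (-0.984), the hyaluronan receptor CD44 (-0.972) and the haem oxygenase HMOX1 (-0.969). These points share arm, time and slide, and the ranking is a description.

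The difference nearest to that of H19 at all 3 times, among 972 named genes, was that of FGFR2, at -0.26, -1.11 and -2.36. Next came the dehydrogenase gene DHDH at -0.22, -0.87 and -2.06, the chemokine CXCL10 at -0.77, -1.15 and -1.92, the sodium pump subunit FXYD2 at -0.20, -0.95 and -1.95, and the calcium-binding protein gene CAPS at -0.16, -0.52 and -2.41. The arms built these differences in different ways. With Tet from 30 to 60 h the level went from 3.79 to 2.53 for FGFR2, as it went down for H19, but only from 1.09 to 1.14 for FXYD2. FXYD2 went from 1.29 to 3.09 without Tet, and CAPS from -2.60 to -0.25.

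**Figure D5:**
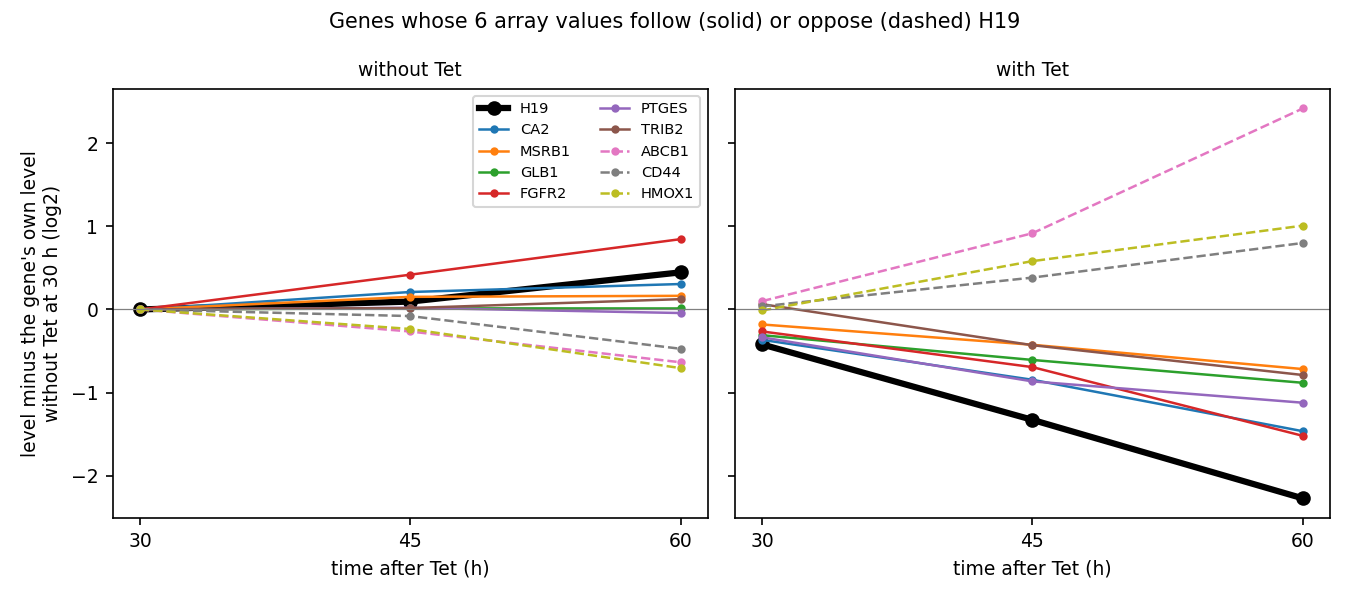
Level of H19 and of the genes with the highest (solid) and the most negative (dashed) correlation with it, against hours. Levels are relative to each gene's own level without Tet at 30 h (log2), without Tet at left and with Tet at right. Each point is 1 array. With Tet, H19 and the 6 solid genes are lower at each later time, and ABCB1, CD44 and HMOX1 are higher.

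The values of IGF2R were most like those of the small GTPase gene RHOB (r = 0.987 over 6 arrays), the cytokine gene IL5 (0.976), the lysosomal cholesterol transporter NPC1 (0.944), FHIT (0.941), the stress-response gene NDRG1 (0.934) and GUCA2A (0.903), from 220 candidates. NPC1 ran from -0.45 to 0.16 without and from -0.20 to 0.46 with Tet. The lowest correlations were those of TNFSF14 (-0.970), the chromatin protein gene HMGN2 (-0.949) and the kinetochore gene CENPS (-0.938). These points too share arm, time and slide, and the ranking is a description. Of the 5 gaps between neighbouring IGF2R levels 0 exceeded the spot error, and IL5 was dim, at levels of -4.69 to -3.10. The differences nearest to that of IGF2R were those of the survival gene MCL1 (0.14, 0.08, 0.16), the calcium pump ATP2B1, the kinase gene DAPK1, the tight junction gene OCLN and OSTC, all between 0.08 and 0.19 at each time.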

How the data were processed

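The deposited raw files give the linear intensity of each spot, read by the authors with Agilent Feature Extraction 11.5.1.1, per the submitters' processing notes and the file headers, on a grid of build canFam3. Per the file headers it is background-subtracted and spatially detrended. The well-above-background flag (0 or 1, used as an other value) and the spot error were deposited in the same files. The deposited series matrix intensity equals the processed signal times 1 factor per array (2.30 to 2.62).

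Outlier spots were left out, spots of a probe averaged, and log2 taken relative to the 75th percentile of 43803 non-control spots. Probes were named by unversioned accession through RefSeq (UU_Cfam_GSD_1.0), whose coordinates are not given because builds differ. This named 2326 probes of 1437 genes, 998 of them in the fit of 27581 features; 19 probes without a usable spot on some array were dropped. Tests for other genes used limma 3.58.1 in R 4.3.3 (two-sided, Benjamini-Hochberg): arm with time as a 3-level block (2 residual degrees of freedom), arm by linear time per 15 h (1), and 60 h minus 30 h (2). With 1 array per condition, p-values rest on the spread of an effect over times or arms, not between cultures. In each SE and p-value limma draws that spread towards the spread of all features. Fits were tested on simulated data.

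Members and the 7 lists were chosen with earlier results of these data known. Named were all member probes; for each member the 6 genes of highest and 3 of lowest correlation and the 5 nearest in difference; up to 6 genes of each list by mean difference, plus any that passed (a few are not reported here); IGF2, IGF1R, INSR, M6PR and the IGF binding proteins; and markers. INS, TH, CTSD and other neighbours were chosen after the matched probes were seen. Alternatives were quantile, median and series matrix values, normexp (offset 50), detection filters, mean of probes, priors, slide, no time term and left-out pairs.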

Additional observations from a re-analysis of the deposited data

Results flagged for a closer look

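The results here moved in opposite directions in groups set under the same contrast, each by more than 0.15, the fit's spread of a difference between 2 arrays. With 1 array per condition the oppositions were not tested beyond the slope fit, which 0 of 27581 features passed (limma; 5235 had an unadjusted p under 0.05).

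From 30 to 60 h H19 changed by 0.45 without Tet and by -1.85 with Tet. NPC2 changed by 0.61 and -0.18, and CTSD by 0.20 and -0.20. The opposite way round, PLAU changed by -0.93 without and 1.84 with Tet, LIF by -0.38 and 0.35, and RAB9A by -0.21 and 0.42. LIF was well above background on only 1 of the 3 arrays without Tet, so at least 1 end of its change there was not. The difference between the arms changed sign with time for MYC, at -0.56, -0.35 and 0.68 for 30, 45 and 60 h, and for HMGA1, at -0.19, -0.22 and 0.39.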

How the results depend on the processing

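The differences of H19 and of the 3 IGF2R probes kept their sign under quantile or median scaling, the deposited series matrix, normexp, the mean of the IGF2R probes and left-out pairs. Left-out pairs aside, 1 value moved by more than 0.15, the spread of a difference: H19 at 60 h, which was -2.42 with normexp. Without 1 pair the mean over times ran from -2.07 to -0.92 for H19, so its size depends on the times kept. It ran from 0.12 to 0.15 for the IGF2R probe A_11_P171358, from 0.13 to 0.18 for A_11_P000002443 and from 0.09 to 0.12 for A_11_P0000028218. No scaling moved the median of all features by over 0.1.

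Counts over all features moved more. For the arms, 0 features passed; 16 did with a trended, robust prior, 126 with normexp and 17 with no term for time, and left-out pairs gave 0 to 1, the 1 without the 30 h pair. For the slope the count of 0 went to 1798 with that prior, 191 with median centring, 1577 with normexp and 2 when every array had to be well above background. For time it went from 2249 to 3771 with that prior, 4101 with normexp, 0 with no detection filter and 0 with slide as a term. The cause was not tested. Features at least 2-fold lower at 30, 45 and 60 h were 0.507%, 1.21% and 2.57% where both arrays were well above background, and 0.212%, 0.467% and 1.12% with normexp. Those 2-fold higher were 0.296%, 0.759% and 1.86%, and 0.156%, 0.250% and 0.879%. Lower or higher by at least 0.58 at each time were 0.794% and 0.355%, and 0.381% and 0.0653% with normexp. No list median of mean differences changed sign under the alternatives run, but several were nearer 0 with normexp. With it the median went from -0.25 to -0.13 for the IGF axis and from -0.31 to -0.19 for imprinted genes. It went from -0.15 to -0.09 for lysosomal cargo and from 0.18 to 0.04 for other IGF2R partners. For sorting receptors and tagging it went from 0.19 to 0.21, and for factors of the H19 and IGF2 domain from -0.04 to -0.05.

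No paired analysis was possible because the labels give no replicate numbers to pair by; the fit for the arms pairs arrays by time instead, and the count of 17 above is the one without that pairing. Leaving out an arm left the time fit no residual degrees of freedom, so that fit was not run. For the dim IGF2 probe, normexp gave -0.15, -0.28 and -0.31 at 30, 45 and 60 h.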
